A study of Mus musculus with 2 samples.

Results

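The immediate early AP-1 and Egr genes examined here were Fos, Fosb, Fosl1, Fosl2, Jun, Junb, Jund, Egr1, Atf3 and Ier2, 10 of the 21938 protein-coding genes of the GENCODE M21 annotation. They were taken as a named list by no rule on measured values, although earlier results of these data were known when the list was chosen. DNase-seq marks open chromatin by cutting accessible DNA in isolated nuclei with DNase I. The series held whole kidney tissue from newborn mice of the B6NCrl strain at 0 days after birth, in 1 group with 2 biological replicates, with no treatment and no second tissue or age. Both replicates carried their own tissue record but the same donor record, their sex was not collected, and nothing stated whether animals were pooled, so their spread may be wholly technical. Nuclei of all kidney cell types were mixed, and an accessible site in a few cells cannot be told apart from a weakly accessible site in many.

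Fos and Jun family proteins pair through leucine zippers to form AP-1, which binds the TGANTCA element, while Egr1 is a zinc finger factor that binds GC-rich DNA. In many cell types several of these genes, Fos and Egr1 among them, are transcribed soon after a growth factor, stretch or stress signal. Their induction needs no new protein synthesis. The signal runs through MAP kinases that act on serum response factor at CArG boxes and through CREB at cAMP response elements. In kidney such genes are known as early responders to ischaemia and tubular injury. DNase accessibility is a property of the chromatin at a gene and does not measure its transcription.

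The replicates held 266133 and 257133 peaks with median signals of 17.1 and 16.9, in the authors' units (how these were scaled was not stated). Overlapping peaks merged into 197749 sites found in both replicates, called shared sites below, of which 151068 had their centre over 1 kb from every annotated transcription start site (TSS) and were called distal. Of 14 kidney marker genes, 12 (85.7%) had a promoter peak, within 1 kb of a TSS, in both replicates, against 71.8% of all protein-coding genes. The 12 included Wt1, Foxd1 and Pax2, and the other 2, Aqp2 and Slc12a1, had a promoter peak in replicate 2. Markers of blood, macrophage and adrenal cells had none in both replicates (0 of 6, among them Adgre1, Alas2 and C1qb, with Ptprc at 8.72 in replicate 1 alone), and neither did the liver, muscle and airway genes Alb, Myh4 and Scgb1a1 (0 of 3).

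Short DNA elements known as signal response elements in these genes were located first, since they place the accessible sites described below. A CArG box, the serum response factor consensus, lay in a shared site within 1 kb of a TSS in 4 of the 10 members (Fos, Fosb, Junb and Egr1), against 2.07% of the 15682 protein-coding genes with such a site. This search of every promoter site was added after the planned search of a narrower window, given below, had been run. The 3 accessible sites of Fos, Fosb and Junb are shown whole, on the strand of their gene and with the CArG match in capitals. They cover chr12:85473501-85473650 (+) for Fos, chr7:19310301-19310450 (-) for Fosb and chr8:84976581-84976750 (-) for Junb, in the GRCm38.p6 (mm10) assembly from RefSeq, and they were chosen after their values were seen.
Fos, 315 bp upstream: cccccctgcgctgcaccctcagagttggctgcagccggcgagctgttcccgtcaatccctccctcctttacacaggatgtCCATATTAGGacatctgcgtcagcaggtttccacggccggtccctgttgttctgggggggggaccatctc
Fosb, 324 bp upstream: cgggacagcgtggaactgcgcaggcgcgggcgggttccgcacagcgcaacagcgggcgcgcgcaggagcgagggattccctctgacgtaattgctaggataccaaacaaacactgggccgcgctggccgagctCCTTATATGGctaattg
Junb, 2053 bp downstream: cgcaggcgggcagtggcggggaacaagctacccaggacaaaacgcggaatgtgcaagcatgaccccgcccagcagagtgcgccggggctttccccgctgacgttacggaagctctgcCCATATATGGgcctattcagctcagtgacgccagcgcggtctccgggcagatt

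The Fos match began 309 bp before the TSS, and its site had signals of 90.5 and 124.5 in replicates 1 and 2. The Fosb match lay 266 bp before the TSS in a site of 132.8 and 178.4. The Junb match was not at the start of the coding transcript: it lay 2085 bp downstream of that TSS and 91 bp upstream of the TSS of a non-coding Junb transcript, in a site of 108.5 and 137.1 just past the 3′ end of the coding transcript. Egr1 held 5 CArG matches in 2 shared sites, placed 407, 369, 353, 105 and 83 bp upstream of its second TSS, and those sites had signals of 113.7 and 122.1 and of 149.6 and 137.0. By mean signal, 0 of the members' 10 strongest promoter sites held a CArG match, although the Fosb site was that gene's strongest in replicate 2. In the planned, narrower window from 250 bp before to 50 bp after a TSS, 1 member, Egr1, held a match, against 2.52% of genes. With TSSs of protein-coding transcripts alone, Junb dropped out and 3 of 10 members kept a match, against 1.88% of genes. Members also had more promoter sites to search (median 3.5 per gene, against 2 over all genes), and counted per site the match was found in 5 of 33 sites of the members (15.2%) and in 0.780% of 41276 promoter sites of all genes.

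A cAMP response element or a close form of it (TGACNTCA, which includes the full TGACGTCA) lay between 250 bp before and 50 bp after a TSS in 4 members, Jun, Jund, Atf3 and Ier2, against 12.7% of genes. The 150 bases before the TSS are shown for Jun, Atf3 and Ier2 with the element in capitals, at chr4:95052223-95052372 (-), chr1:191218040-191218189 (-) and chr8:84662853-84663002 (-). Jund carried its full element 214 bp before the TSS, outside a stretch of that length.
Jun: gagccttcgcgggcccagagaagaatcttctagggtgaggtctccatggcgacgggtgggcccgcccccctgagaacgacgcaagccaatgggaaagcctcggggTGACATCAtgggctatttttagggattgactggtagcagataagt
Atf3: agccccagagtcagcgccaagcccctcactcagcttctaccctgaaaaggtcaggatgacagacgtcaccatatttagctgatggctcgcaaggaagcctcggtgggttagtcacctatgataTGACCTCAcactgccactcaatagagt
Ier2: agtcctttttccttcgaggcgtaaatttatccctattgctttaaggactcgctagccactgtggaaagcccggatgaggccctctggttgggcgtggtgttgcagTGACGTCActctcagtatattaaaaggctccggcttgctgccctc

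The Jun and Ier2 elements both began 45 bp before the TSS and lay inside the gene's strongest promoter site. The Atf3 element, 27 bp before the most upstream TSS, lay in no shared site, and the Jund element was not wholly inside one. Counted in promoter sites, TGACNTCA was found in 2 of 10 members, Jun and Ier2, against 10.6% of genes. The full TGACGTCA was found in the windows of 2 members, Jund and Ier2, against 3.08% of genes, and in a promoter site of 1 member, Ier2, against 4.05%. The AP-1 element itself was found in the windows of 0 of 10 members, against 12.0% of genes, and in a promoter site of 1 member, Fosl1, against 10.9%. Every match is a run of letters and not a measured binding event.

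Promoter accessibility was next taken gene by gene. All 10 members had a peak within 1 kb of a TSS in both replicates, against 71.8% of protein-coding genes (15743 of 21938; 72.8% in replicate 1 and 72.9% in replicate 2). The signal of a promoter was that of its strongest peak, and its percentile was its rank among protein-coding genes with a promoter peak, averaged over the replicates. The members' median signals were 154.5 and 160.7 in replicates 1 and 2, against 94.0 and 102.7 over all genes with a peak. Their median percentile was 75.8, and 1 of 10 lay in the upper 10% of genes, against 10.1% of all genes, so the members stood above the middle of the range, while their share at its top was near the background.

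**Figure D1:**
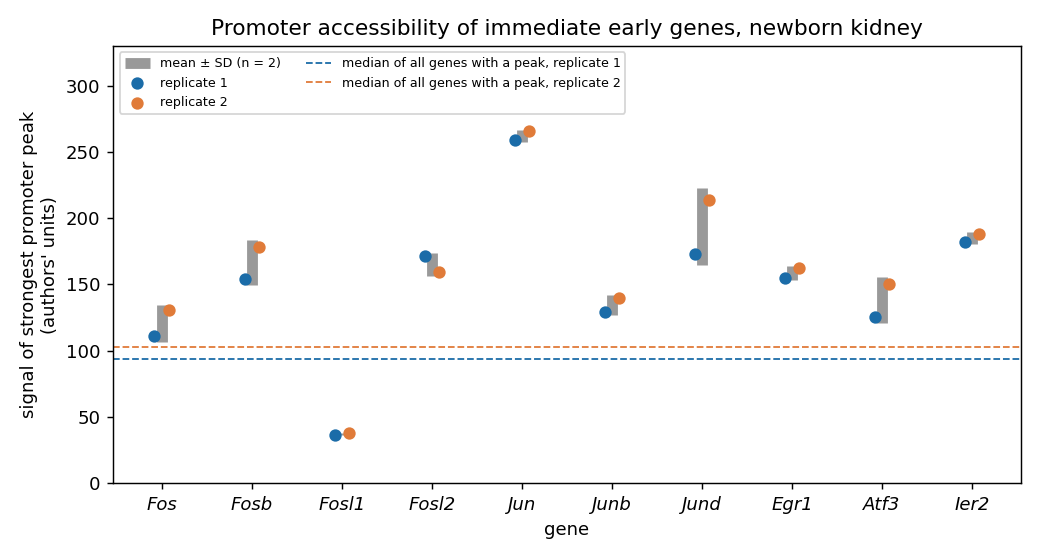
Signal of the strongest peak within 1 kb of a TSS, in the authors' units, for each of the 10 genes, with points for the replicates, grey bars for the mean ± SD (n = 2) and dashed lines for the median of all protein-coding genes with a peak. Fosl1 lies below both lines, Jun is highest, and the other genes lie above both lines.

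Among the Fos family, Fos (chr12:85473890-85477273, + strand), the founding AP-1 partner, had promoter signals of 110.9 and 130.5, a mean of 121 ± 13.9 (SD, n = 2) at percentile 60.2. Fosb (chr7:19302696-19310051, - strand), whose splice form deltaFosB is long lived, had 154.3 and 178.4 (166 ± 17.1, SD, n = 2, percentile 77.1). Its strongest peak was a different one in each replicate: an exonic site 1356 bp downstream of the most upstream TSS in replicate 1, and the CArG site 324 bp upstream in replicate 2. Fosl2 (chr5:32135801-32157842, + strand), which encodes Fra-2, had 171.5 and 159.2 (165 ± 8.67, SD, n = 2, percentile 76.9). Fosl1 (chr19:5447547-5455946, + strand), which encodes Fra-1, stood apart with 36.7 and 37.9 (37.3 ± 0.807, SD, n = 2, percentile 20.6). Fosb and Fosl2 overlapped in their replicate values, whereas both values of Fosl1 lay under those of every other member.

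Among the Jun family, Jun (chr4:95049034-95052222, - strand), the prototype AP-1 subunit, was the most accessible member, with 259.2 and 265.6 (262 ± 4.52, SD, n = 2, percentile 95.9). Its strongest site was centred 93 bp upstream of its single annotated TSS. A second strong site 1113 bp upstream, at 238.1 and 221.9, lay at the TSS of Junos, the antisense non-coding gene whose intron spans the Jun promoter. Jund (chr8:70698949-70700616, + strand), the family member with high basal expression in many tissues, had 173.0 and 214.1 (194 ± 29.1, SD, n = 2, percentile 84.3). Junb (chr8:84974484-84978718, - strand), which can oppose Jun in growth control, had 129.1 and 139.5 (134 ± 7.36, SD, n = 2, percentile 66.1). The replicate values of the 3 Jun genes did not overlap, and they ran from Junb through Jund to Jun.

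Egr1 (chr18:34859823-34864984, + strand) had promoter signals of 154.7 and 162.2 (158 ± 5.26, SD, n = 2, percentile 74.7). Its strongest site sat 142 bp downstream of the first TSS, within the exon, and 5 shared promoter sites ran along the first part of the gene. Ier2 (chr8:84661331-84662852, - strand), a small nuclear immediate early protein, had 182.2 and 188.5 (185 ± 4.42, SD, n = 2, percentile 82.6). Atf3 (chr1:191170296-191218039, - strand), a stress-induced bZIP factor that pairs with Jun proteins, had 125.8 and 150.2 (138 ± 17.3, SD, n = 2, percentile 67.3). The Atf3 signal came from a downstream TSS, with the site 34654 bp inside the gene from its most upstream TSS. That upstream TSS had no shared site within 1 kb, and the nearest one, 1464 bp downstream, had signals of 39.2 and 33.5.

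Ordered by mean signal, the genes ran Fosl1, Fos, Junb, Atf3, Egr1, Fosl2, Fosb, Ier2, Jund and Jun. Neighbours from Fos to Atf3 had overlapping replicate ranges, as had Egr1, Fosl2 and Fosb, and Ier2 and Jund, so their order is not separated from the replicate spread. Replicate 2 was higher in 9 of 10 members, the exception being Fosl2. The direction was not particular to the members, as the median over all genes with a peak was 102.7 in replicate 2 and 94.0 in replicate 1. The median log2 ratio of replicate 2 to replicate 1 over all shared sites, -0.014, was then subtracted. That median was taken over sites and not over gene promoters. The log2 ratio after this step ran from -0.09 in Fosl2 to 0.32 in Jund, while its SD over genes was 0.23. CpG content was somewhat higher at the members: their median ratio of observed to expected CpG around the TSS was 0.776, against 0.705 over genes with a shared promoter site. Egr1 was lowest among members at 0.544. The part of CpG content in the signals was not tested.

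Fos had the most distal sites of the 10 genes in the shared set, though not in the peaks of replicate 1 alone, where Ier2 had 28 and Fos 26. Within 50 kb of its TSS lay 32 shared sites, 26 of them distal, which put it at percentile 98.8 of protein-coding genes for distal sites. No other protein-coding TSS lay in that window, and all 32 sites had a Fos TSS as their nearest protein-coding TSS. The strongest was not the promoter but an intergenic site 18485 bp upstream, at chr12:85455321-85455490, with signals of 265.7 and 300.1. Both values exceeded those of the Fos promoter in the same replicate, and by mean rank of signal the site stood 25th of the 151068 shared distal sites. The next strongest distal site lay 12185 bp downstream of the TSS, at chr12:85486001-85486150, beyond the 3′ end of the gene, with 148.8 and 152.9. Both are shown whole on the + strand, as the pair of strongest distal sites of the gene, with the CArG match of the downstream site in capitals.
Fos, 18485 bp upstream: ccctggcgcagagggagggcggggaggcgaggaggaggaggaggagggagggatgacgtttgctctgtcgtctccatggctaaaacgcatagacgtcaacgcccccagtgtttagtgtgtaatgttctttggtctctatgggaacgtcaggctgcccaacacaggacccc
Fos, 12185 bp downstream: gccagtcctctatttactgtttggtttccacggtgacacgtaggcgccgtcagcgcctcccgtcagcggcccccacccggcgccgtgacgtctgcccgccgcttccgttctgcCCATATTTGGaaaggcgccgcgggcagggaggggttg

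**Figure D2:**
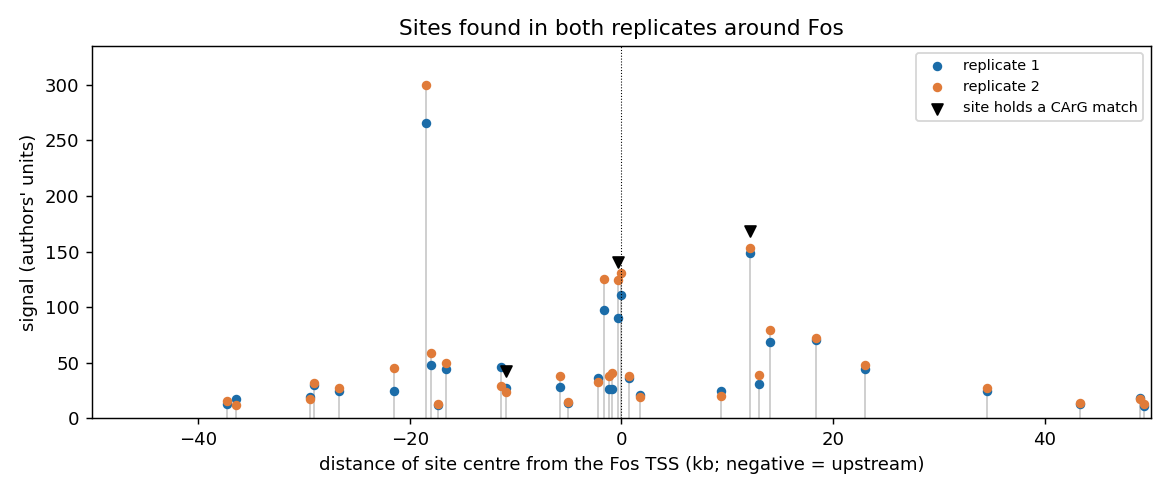
Signal of each shared site within 50 kb of the most upstream Fos TSS, in the authors' units, against the distance of its centre from that TSS in kb (negative is upstream), with 1 point per replicate and triangles over the sites that hold a CArG match. The site 18485 bp upstream is highest in both replicates, and the triangles stand at 3 sites, 1 in the promoter, 1 upstream and 1 downstream.

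The upstream Fos site held no match to the AP-1, CArG, TGACNTCA, EGR (GCGNGGGCG) or ETS (CCGGAAG) letters on either strand, and it held 1 match to the SP/KLF letters (GGGCGG). The site was the far end of a group of 4 sites, with others 17985, 17305 and 16565 bp upstream and gaps of 500, 680 and 740 bp. The others were weaker, at 48.0 and 59.1, 11.8 and 12.5, and 44.3 and 49.5. A CArG match was also present in a weak site 10895 bp upstream, at 26.9 and 23.7. Closer to the gene, the site 1625 bp upstream had 97.8 and 125.3, near the values of the promoter sites, and the first distal site, 1175 bp upstream, had 25.9 and 38.1.

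Around the other Fos family genes, the strongest distal site of Fosb lay 10114 bp upstream in an exon of the non-coding gene D830036C21Rik (chr7:19320081-19320250), with 170.6 and 185.1. Those values lay above the 154.3 and 178.4 of the Fosb promoter, and the site stood 191st among all shared distal sites. Fosb had 16 distal sites of 38 shared sites, and 6 other protein-coding genes began within its window. Fosl2 had 14 distal sites of 20 with no other protein-coding gene in the window, and its strongest, in its own intron 4114 bp downstream, reached 59.4 and 68.5. The Fosl2 count was 22 with the peaks of replicate 2 alone, without replicate 1, and 7 with the upper 50% of signal. Fosl1 had 9 distal sites of 32, the fewest of the members, amid 10 other protein-coding genes. Only 4 of the 32 sites near Fosl1 (12.5%) had a Fosl1 TSS as the nearest protein-coding TSS. The strongest distal site of Fosl1, 44078 bp downstream at 94.7 and 96.3, lay in an intron of Cfl1, the cofilin gene. That site counted as distal by a small margin, since its centre was 1060 bp from a Cfl1 TSS.

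Around the Jun family, Jun had 11 distal sites of 21, and the strongest, 2087 bp downstream in its own exon, had 74.8 and 86.4, well under the promoter. The Jun count was 18 with the peaks of replicate 1 alone, without replicate 2, and 5 with the upper 50% of signal. Junb had 16 of 35 amid 9 other protein-coding genes. The strongest distal site of Junb was also its nearest upstream one, 1327 bp from the TSS, at 103.3 and 96.7. Jund had 13 of 28 amid 5 other genes. Its strongest, 49454 bp upstream in an exon of Pgpep1, had 53.6 and 83.2, and its nearest upstream one, at 2294 bp, had 55.8 and 71.0.

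Ier2 had 21 distal sites of 42, at percentile 96.3, amid 5 other protein-coding genes, and 17 of the 42 (40.5%) had its own TSS as the nearest protein-coding TSS. The strongest lay 1243 bp upstream at chr8:84664021-84664170, with 223.4 and 230.7, above the Ier2 promoter in both replicates and 65th among all shared distal sites. It counted as distal by a small margin, since its centre was 1033 bp from the TSS of the non-coding gene Gm26664. Egr1 had 16 distal sites of 23, the strongest 27702 bp downstream at 121.5 and 160.3 and another 9528 bp upstream at 112.7 and 122.5. Atf3 had 13 of 20, the strongest in its intron 23824 bp downstream of the upstream TSS, at 47.5 and 59.4. A stronger site 6376 bp upstream of Atf3, at 112.9 and 172.5, was not distal, as it lay at the TSS of D730003I15Rik.

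**Figure D3:**
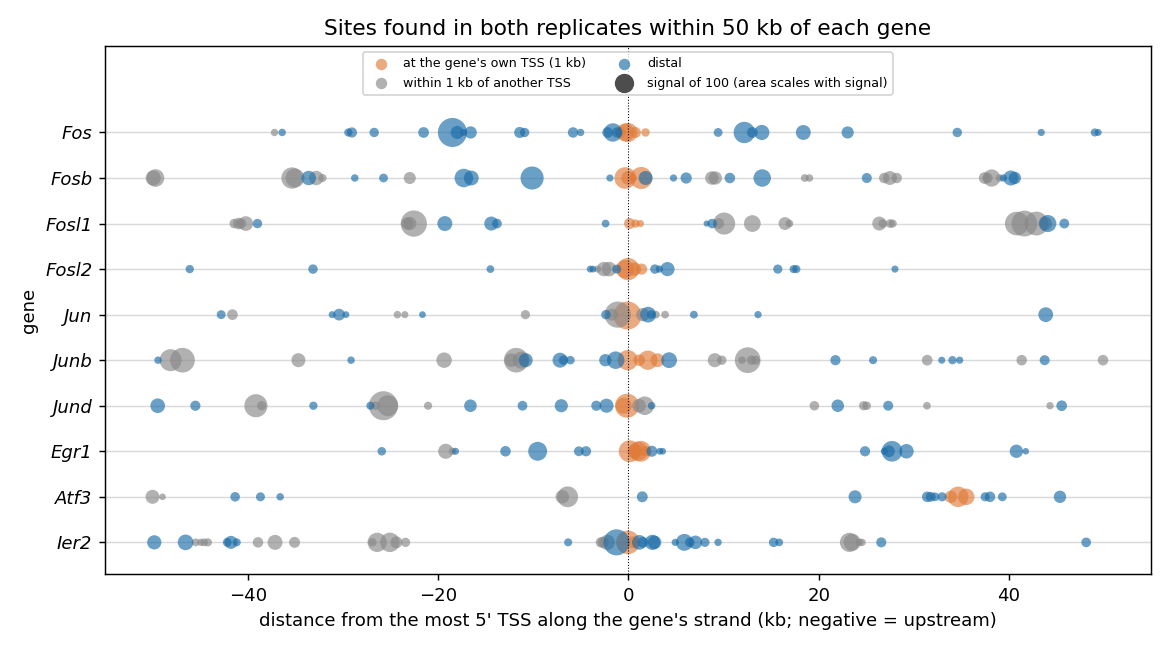
Shared sites within 50 kb of each of the 10 genes, by distance of the site's centre from the most upstream TSS along the gene's strand in kb (negative is upstream), with area scaled to mean signal and colour for sites at the gene's own TSS, within 1 kb of another TSS, or distal. The strongest distal sites of Fos, Fosb and Ier2 lie upstream of their genes, a second large one of Fos lies downstream, and the own-TSS sites of Atf3 lie inside the gene.

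Over all members, 291 shared sites lay within 50 kb, 143 upstream and 148 downstream, and no site lay in the windows of 2 members. Of these, 153 had the member's own TSS as the nearest protein-coding TSS, from 100% at Fos to 12.5% at Fosl1, so sites near Fosl1, Junb, Jund, Fosb and Ier2 in gene-dense surroundings cannot be assigned to them from position. The members' median was 30 shared sites, against 11 over all protein-coding genes, and 15 distal sites (from 9 to 26), against 6. The 155 distal sites of the members had median signals of 27.9 and 29.0, against 19.8 and 18.6 over all shared distal sites. In all, 40 of the 155 (25.8%) lay in the upper 10% of shared distal sites by mean rank, against 10% of all of them. The set of all shared distal sites was not limited to sites within 50 kb of a protein-coding TSS. The part of position near a gene in these differences was not tested. More than 50% of the bases were soft-masked as repeats in 10 of the 155 (6.45%), against 2.8% of all shared distal sites. No other protein-coding TSS lay within 50 kb of 4 of the 10 members (Fos, Fosl2, Jun and Atf3), against 22.4% of genes, and these ranged from 11 to 26 distal sites while the other 6 ranged from 9 to 21.

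**Figure D4:**
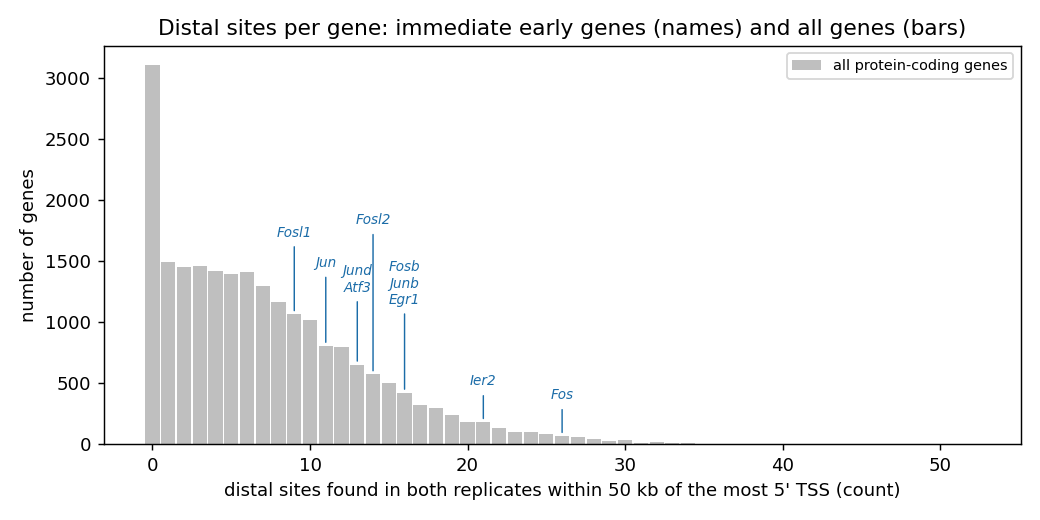
Number of distal shared sites within 50 kb of the most upstream TSS, as counts, with the 10 genes named above grey bars that give the number of protein-coding genes at each count. Fos at 26 and Ier2 at 21 lie in the right tail, while Fosl1 at 9 and Jun at 11 lie in the body of the distribution.

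The spacing of upstream sites differed among the members. Fos had 20 shared sites upstream with a median of 740 bp between neighbouring centres, and 12 of its 19 gaps were under 1 kb. Fosl1 had 12 sites with a median gap of 600 bp, but its run included promoters of other genes and a gap of 15740 bp. The median gap was 735 bp over 11 sites for Fosl2, 1015 bp over 23 for Ier2, 1100 bp over 13 for Jun, 1260 bp over 16 for Junb and 1610 bp over 16 for Fosb. Wider by all sites were Atf3 at 2365 bp over 7 sites, Egr1 at 3380 bp over 8 and Jund at 3820 bp over 17. These medians mix distal sites with promoter sites of neighbours and, except at Fosl1, Egr1 and Atf3, with the gene's own promoter sites. The first upstream site lay 2392 bp away at Fosl1, 4448 bp at Egr1 and 6376 bp at Atf3. All 5 promoter sites of Egr1 lay downstream of its most upstream TSS and entered no gap, so its median depends on the TSS chosen. At Fosl2 all 7 gaps under 1 kb lay between its own promoter and a run of sites at the start of the non-coding gene Gm10463. Among upstream distal sites alone the order was another. The median gap was 790 bp over 16 sites at Fos, 2365 bp over 3 at Atf3, 3610 bp over 8 at Junb and 3835 bp over 7 at Ier2. It was 4330 bp over 6 at Egr1, 4775 bp over 9 at Jund and 5615 bp over 7 at Fosb. The widest were 8040 bp over 6 at Jun, 8145 bp over 5 at Fosl1 and 10490 bp over 6 at Fosl2. The Atf3 value rests on few sites, all of them 36586 bp or more upstream. Fos was the closest spaced by distal sites, while Fosl1 and Fosl2, close by all sites, were the widest.

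Pooled over the members, the median gap was 1180 bp and 61 of 133 gaps (45.9%) were under 1 kb, against 2180 bp and 36.2% over all protein-coding genes. The median of the gene medians was 1180 bp for members, against 3085 bp for the 16941 of 21938 protein-coding genes that had an upstream gap. The pooled value depended on the replicates: it was 770 bp with all peaks of replicate 2 alone and 880 bp with those of replicate 1 alone, since each replicate held more peaks than the shared set. The first upstream distal site lay between 1175 and 2392 bp from the TSS in 8 members. At Fosl1 it lay at 2392 bp with 21.7 and 10, at Fosl2 at 1226 bp with 23.8 and 23.0, and at Jun at 2353 bp with 29.2 and 22.9. It was farther at Egr1, 4448 bp away with 29.8 and 32.2, and at Atf3, 36586 bp away with 16.8 and 12.4. The Atf3 distance runs from the most upstream TSS, which had no shared site within 1 kb. Inside that gene, a distal site 31404 bp downstream of this TSS, with 29.1 and 37.5, lay upstream of the accessible promoter site at 34654 bp. The nearest ones also differed widely in signal, with 13.03 and 13.09 at Fosb, 1934 bp upstream, and 223.4 and 230.7 at Ier2.

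AP-1 elements were then sought in the distal sites, since AP-1 factors are known to act at enhancers. Within the central 150 bp, 9 of the 155 distal sites of the members held TGANTCA on either strand (5.81%), against 6.90% of all shared distal sites, so the members' share was near the background. The 3 strongest that could be shown are given whole, with the AP-1 match in capitals, as the accessible places near these genes where such letters occur. They lie at chr7:19327241-19327430 (-), chr19:5491541-5491710 (+) and chr8:70682261-70682450 (+).
Fosb, 17284 bp upstream: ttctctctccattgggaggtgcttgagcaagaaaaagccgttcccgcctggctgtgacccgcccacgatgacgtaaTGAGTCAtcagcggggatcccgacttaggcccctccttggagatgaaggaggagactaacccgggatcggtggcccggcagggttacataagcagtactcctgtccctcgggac
Fosl1, 44078 bp downstream: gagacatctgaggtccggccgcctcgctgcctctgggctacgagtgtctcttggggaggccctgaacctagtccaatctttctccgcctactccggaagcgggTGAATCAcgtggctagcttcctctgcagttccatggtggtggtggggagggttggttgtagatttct
Jund, 16594 bp upstream: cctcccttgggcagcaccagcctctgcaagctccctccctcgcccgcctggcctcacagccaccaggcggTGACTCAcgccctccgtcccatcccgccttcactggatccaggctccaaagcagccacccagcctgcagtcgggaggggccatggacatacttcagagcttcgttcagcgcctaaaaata

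The Fosb site, in an intron of D830036C21Rik, had signals of 94.5 and 131.0, and the Jund site had 42.1 and 56.9. The Fosl1 site is the Cfl1 intron site named above. A stronger Ier2 site with a match, 1157 bp downstream of the TSS at 67.0 and 71.2, overlapped the untranslated region and is not shown. CArG matches lay in 3 of the 155 central windows (1.94%, against 0.902%), near Fos 10895 bp upstream and 12185 bp downstream and near Fosl2 28014 bp downstream. The GC-rich SP/KLF letters GGGCGG lay in 20.6% of the members' central windows, against 5.60% of all, which were not limited to sites near genes.

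At the promoter sites themselves the EGR letters were found in 4 of 10 members (Fosb, Fosl2, Jund and Egr1), against 12.4% of genes. SP/KLF letters were found in 9, the exception being Fosl1, against 68.2%, and in the narrower windows of 8, against 53.2%. ETS letters were found in 2, Junb and Egr1, against 19.7%, and TATAAA in 2, Fos and Junb, against 11.5%. Egr1 is the member that holds CArG, ETS and EGR letters together in its accessible promoter. EGR and SP/KLF letters can overlap, as both are GC-rich.

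**Figure D5:**
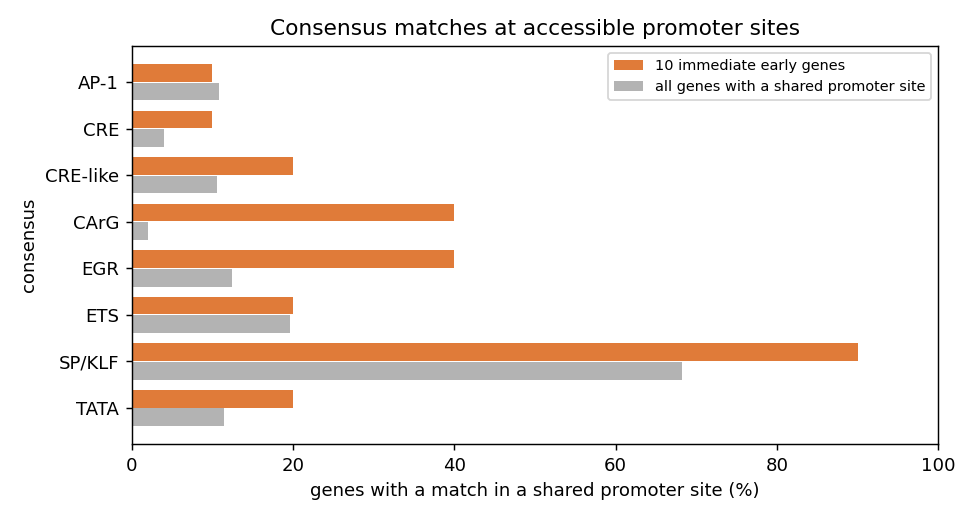
Share of genes, in percent, with at least 1 match to each consensus in a shared site within 1 kb of a TSS, for the 10 immediate early genes (orange) and all 15682 protein-coding genes with such a site (grey). The bars differ most for CArG, at 40% and 2.07%, and are near each other for AP-1 and ETS. The search of every promoter site was added after the data were seen.

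Genes of the same pathway were read in the same way. Of 35 other immediate early genes, all 35 had a promoter peak in both replicates, with a median percentile of 71.7 and a median of 16 distal sites. Gadd45b, a stress-induced growth arrest gene, had the highest mean rank with 195.4 and 261.3, before Klf6 at 210.1 and 233.2 and the ERK phosphatase Dusp6 at 211.9 and 230.4, though in replicate 1 it was below both and the ranges overlapped. All 17 other bZIP partners had one (median percentile 75.8, median 14 distal sites), with Nfe2l1 at 251.7 and 286.9, Atf2 at 237.7 and 274.5 and Atf7 at 227.2 and 253.6. All 21 upstream regulators had one (median percentile 75.7), among them the serum response factor gene Srf at 236.8 and 254.2, its cofactor Mrtfa at 246.7 and 286.6 and the stress kinase Mapk14 at 213.2 and 255.1. The upstream regulators had a median of 7 distal sites, near the 6 of all genes, although their promoter percentiles lay at the level of the members.

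CArG matches in promoter sites were found in 4 of the 10 members and in 7 of the 35 other immediate early genes (Arc, Dusp1, Dusp5, Egr2, Egr3, Klf6 and Zfp36). They were found in 0 of 17 bZIP partners, 0 of 21 upstream regulators and 0 of 12 kidney markers with such a site. The share over all genes with such a site was 2.07%, so a count of 0 in lists of this size is near the background. These are counts over lists assembled by known function, with no test of the difference between them. Within the lists some promoters were weak, the weakest being the bZIP gene Nrl at 9.3 and 12.1. The Egr1 relative Egr4 had 15.4 and 19.8, the lymphoid AP-1 partner Batf 17.2 and 26.0, and Batf3 34.7 and 34.3. All of these were lower than Fosl1 in both replicates. The kidney markers had lower promoter signal than the members, with a median percentile of 33.4, but nearly as many distal sites, with a median of 14.5.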

How the data were processed

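The 2 peak lists of DNase-seq, 1 per replicate, were analysed. Per the file headers, reads were 36 nt long and positions are in mm10-minimal. No aligner, caller, threshold or depth scaling is named there or in the labels. The deposited signal column is the authors' value per peak, of unstated scaling; the depth behind it is unknown, so no counting interval is given. The −log10 p of each peak, also deposited by the authors and capped at a maximum, was not used in any result. GENCODE M21 TSSs were used with Python 3.11.15, numpy 2.4.6, pandas 2.3.3 and pysam 0.24.0. Peaks of both replicates overlapping by at least 1 bp were merged into shared sites. Promoter peaks overlapped 1 kb to either side of any TSS of a gene, and distances run along the gene's strand from its most upstream TSS. Motifs were searched on both strands as exact letters in the RefSeq GRCm38.p6 sequence, in windows from 250 bp before to 50 bp after each TSS of a protein-coding transcript and in sites. The search of every promoter site was added after the data were seen. With 1 group of 2 replicates no test between conditions was possible, and values are compared with all genes as descriptions. The scripts were checked on simulated peaks. All 10 members were named, with each one's strongest and nearest upstream distal site. From each companion list the 3 genes highest in promoter signal and the first 3 lacking a promoter peak were named; other genes were chosen after their values were seen. The members and lists were chosen with earlier results of these data known. Alternatives were another promoter window, peak centres, stricter signal and overlap, another TSS, a wider window, and leaving out each replicate.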

Additional observations from a re-analysis of the deposited data

How the results depend on the processing

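All 10 members had a promoter peak under every alternative tried. Their median percentile of promoter signal, 75.8 in the main analysis, ran from 72.6 to 76.3 when a replicate was left out. The median percentile for distal sites, 87.9, was 93.8 with the upper 50% of signal, 89.1 with an overlap of 75 bp, 85.6 within 100 kb and 94.2 with promoter sites included, where the members had 291 sites instead of 155. It was 87.5 among genes alike in having or lacking a neighbouring TSS, an alternative added after seeing the data. The pooled upstream gap, 1180 bp, was 1300 bp with the upper 50% of signal, 1315 bp with an overlap of 75 bp and 1070 bp from the TSS nearest the strongest promoter peak, and from 770 to 880 bp with a replicate left out, since more sites then count. Members with a CArG match numbered 1 in the windows around the TSS (Egr1, against 2.52% of genes), 0 in strongest promoter sites, 4 in every shared promoter site and 3 at the TSSs of protein-coding transcripts; these differ by the sequence searched. For single genes, 109 values stayed within the replicate spread or 1.5 times of the count and 11 moved. All that moved were distal counts: 7 with promoter sites included, and Fosl2 and Jun with the upper 50% of signal or 1 replicate left out. Promoter signals with 1 replicate left out could not leave that spread, since each of 2 values lies within 1 SD of their mean. Under the other settings only the Fosb promoter signal changed, to 155.6 with a window of 500 bp. The 109 are therefore no measure of how stable promoter signal is. No paired analysis was possible because the series holds 1 group. The unknown depth limits the weakest sites, and 2 replicates limit every SD.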
